A study of Prunus persica with 16 samples.

Results

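The comparison described here is the difference between hydrogen cyanamide (HC) and control buds of peach averaged over 3 and 7 days after treatment. It took in all 16 libraries of the series, chosen by their labels: 8 from HC-treated trees and 8 from untreated trees, 4 of each per day. All trees were of the low-chill cultivar TropicBeauty on Floridaguard rootstock, were 5 years old, and had met 11 of the 150 chilling hours the cultivar requires when treatment began. The HC group was sprayed with HC at 1% (v/v) and a non-ionic surfactant at 0.15% (v/v). The control group received no HC, and the labels mention no surfactant for it, so the effects of HC and of the surfactant cannot be told apart. Per the labels each treatment had 4 trees as its replicates, so each tree probably gave a library at 3 and another at 7 days, although the labels do not tie a number to a tree. The 8 libraries of a treatment then stand for 4 trees, and p-values from 8 against 8 libraries treat them as independent.

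Buds of temperate fruit trees stay dormant through winter and need a period of cold, counted as chilling hours, before they can open. HC is a growth regulator that brings bud break forward where winters are too mild to meet this need. In plants it is known to inhibit catalase, an enzyme that removes hydrogen peroxide, and to set off oxidative stress and respiratory responses in buds. In peach, a cluster of dormancy-associated MADS-box genes is tied to keeping buds dormant. The deposited tables pair no identifier with a gene name or function, so the genes below are given by identifier and by what their values did, and no pathway can be read from them.

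The files do not name the unit of the values, which behave as FPKM, read fragments scaled by transcript length and by library size, and are called so here. Differences are HC minus control on the log2(FPKM + 1) scale, with standard errors (SE) from limma. A gene was called at a Benjamini-Hochberg adjusted p under 0.05 over all 16596 genes tested. Reads per library in megareads (M), estimated from the spacing of low values, ran from 2.60 to 22.0 M in HC (median 6.14 M) and from 0.555 to 13.2 M in control libraries (median 3.59 M). HC libraries had a mean of 15624 ± 2195 genes above 0 and control libraries 13553 ± 2675 (SD, n = 8; exact permutation test, two-sided, p = 0.11, and p = 0.23 for estimated reads, both 0.23 after adjustment over the pair). Control replicate 2 at 3 days (8667 genes above 0) and control replicate 1 at 7 days (10356 genes) had the fewest.

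The average HC effect was called in 216 genes, 1.3% of those tested. Of these, 145 were higher in HC (0.874% of tested genes) and 71 were lower (0.428%). The rises were the larger changes: their median difference was 2.24, against -1.22 among the falls, while the median over all tested genes was 0.23. All 17 called genes with a difference beyond 4 were rises, and the falls reached -3.71 at most. At the other end, 57 called genes differed by 1 or less, 29 of them higher and 28 lower, and the smallest called difference was 0.41. The lower genes were abundant, with a median of 277 FPKM over the 16 libraries, against 10.8 FPKM over all tested genes. Of the 71, 64 (90.1%) were above 0 in every library, against 35.6% of all tested genes. The higher genes had a median of 60.2 FPKM, and 64 of 145 were above 0 in every library. Size moved with level among the called genes. Their median absolute difference was 2.21 under 5 FPKM, 2.66 between 5 and 20 FPKM and 0.85 at 500 FPKM or more. The part of level in the larger size of the rises was not tested.

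Of the 145 rises, 33 were in genes listed at 0 in at least 6 of the 8 control libraries. No called gene was listed at 0 in 6 or more HC libraries. This imbalance was also present among all tested genes, of which 968 were at 0 in at least 6 control libraries and 123 in at least 6 HC libraries. Lower depth of some control libraries moved with it, and its part in the 33 rises was not tested. Whole buds were sequenced, so fewer cells of a type and less RNA per cell cannot be told apart in any of these genes. Without the sparsest control library of each day, 198 genes were called (130 higher, 68 lower), and 146 of them were among the 216.

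The averaging was meant to bring out small, constant effects that tests of single days miss. The single-day contrasts use the same libraries, so their counts are given beside the average and are not independent of it. At 3 days 301 genes (1.81%) were called and at 7 days 74 (0.446%). Of the 216 genes of the average, 101 were also called at 3 days alone, 12 at 7 days alone, 12 at both days and 91 at neither (0.548% of tested genes). In the other direction, 184 genes called at 3 days only, 46 called at 7 days only and 4 called at both days with opposite signs were not called on the average. The average came from a fit with day and treatment as terms, and the single days from a fit with 1 mean per group. In the former fit a difference of the HC effect between days counts as error. With the average taken from the latter fit, 301 genes were called (209 higher, 92 lower), among them all 216, and 108 were called on the average only. Over all tested genes the median SE was 0.53 for the average and 0.74 for a single day.

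Most of the 91 genes were not small effects. Their median absolute difference was 1.95, larger than the 1.44 of the 101 genes also called at 3 days. The 91 also had a larger median SE (0.42 against 0.31) and a lower median level (71.1 against 186 FPKM). A larger SE requires a larger difference for a call, so the 2 sizes are not compared on equal terms. Of the 91, 21 differed by 1 or less, 25 by between 1 and 2, 43 by between 2 and 4 and 2 by more than 4. The 65 that were higher in HC had a median of 2.24 and a median level of 23.8 FPKM, and 17 of them were at 0 in at least 6 control libraries. The 26 that were lower had a median of -1.25 and a median level of 326 FPKM. The 21 small ones were abundant genes, with a median of 532 FPKM, no library at 0 and a median SE of 0.15. The 26 lower genes were abundant as well, but 12 of them differed by between 1 and 2, 8 by between 2 and 4, and only 6 by 1 or less.

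**Figure D1:**
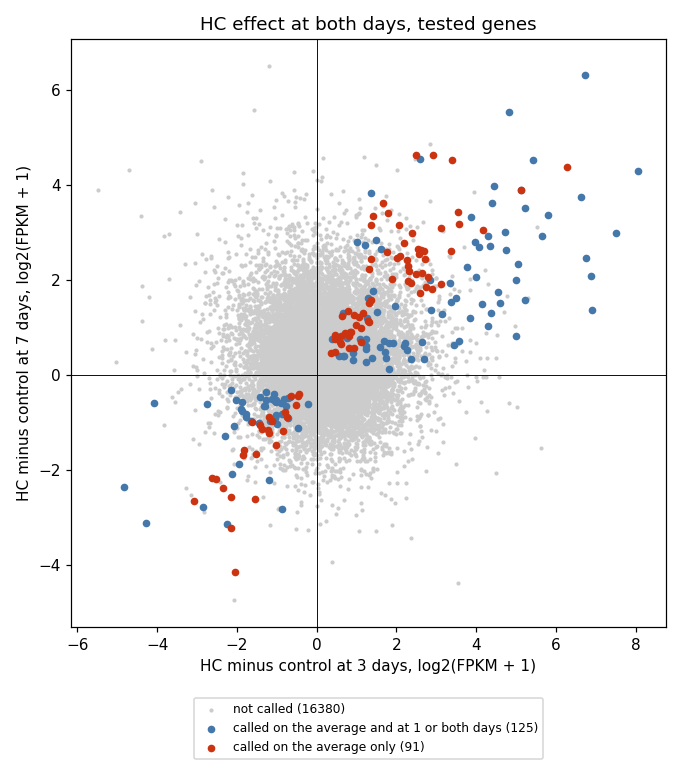
Each point is a tested gene, with its HC minus control difference at 3 days on the x axis and at 7 days on the y axis, both on the log2(FPKM + 1) scale. The 91 genes called on the average and at neither single day lie near the diagonal in the upper right and lower left quadrants, and many of the other called genes lie farther out along the 3-day axis. Choosing the 91 by the single-day tests favours this.

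In every one of the 216 genes the differences at 3 and 7 days had the same sign, which calling the average favours; over all tested genes 53.1% had the same sign. Among the 145 higher genes the median difference was 2.28 on day 3 and 1.77 on day 7, and among the 71 lower genes it was -1.29 and -0.90. The 3-day difference was the larger in size in 148 of the 216, and in 8520 of all 16596 tested genes. Among the 91 genes called on the average only, the order was not the same: the 65 higher ones had medians of 1.88 and 2.07, the 26 lower ones -1.40 and -1.20, and 42 of 91 were larger at 3 days. Leaving out the genes called at 3 days favours this. Of the 101 genes called on the average and at 3 days alone, 100 were larger at 3 days. The difference between the days was itself tested in each gene. It was called for 81 genes (0.488%), of which 7 were among the 216. In limma at an unadjusted p under 0.05 it was 55 of the 216, and 1600 of all 16596 tested genes. None of the 91 called at neither day was among these 55, a count that choosing them by the single-day tests favours and that supports nothing. A test that misses the threshold does not show that an effect was equal at both days.

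For each library, values were taken relative to the mean of the control libraries of the same day (for a control library, the other 3). The median over the 145 higher genes lay between 2.14 and 2.37 in the HC libraries of 3 days and between 1.42 and 1.81 in those of 7 days, and between -0.50 and 0.34 in control libraries. Over the 71 lower genes the medians ran from -1.72 to -0.995 at 3 days and from -1.02 to -0.64 at 7 days in HC, and from -0.14 to 0.13 in control libraries. These genes were chosen by the same values, so the gap describes them and tests nothing. The falls were uneven: HC replicate 1 of 3 days had the strongest, at -1.72, and HC replicate 2 of 7 days the weakest, at -0.64. Over the 26 lower genes called on the average only, the medians of the 7-day HC libraries ran from -1.78 in replicate 3 to -0.69 in replicate 2.

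**Figure D2:**
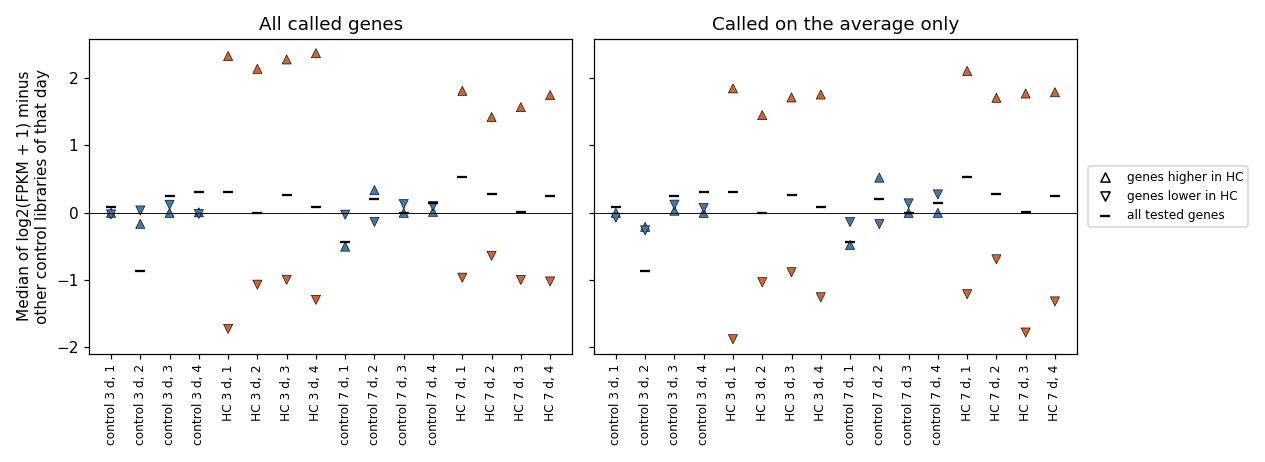
The y axis gives, for each library on the x axis, the median of log2(FPKM + 1) minus the mean of the other control libraries of that day, over genes called higher (upward triangles) or lower (downward triangles) in HC and over all tested genes (dashes), for all 216 called genes on the left and the 91 called on the average only on the right. HC libraries (orange) sit apart from control libraries (blue) in both panels, and control replicate 2 of 3 days has the lowest median over all tested genes, at -0.87.

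Separation of the libraries picked partly other genes than the call did. In 110 of the tested genes (0.663%) every HC library lay on the same side of every control library of its day at both days, and 81 of these were among the 216, 49 higher and 32 lower in HC. The remaining 29 were not called. With the days pooled, 35 of the 16596 tested genes had no overlap between the 8 HC and the 8 control libraries. Of these, 31 were among the 216. Of the 91 genes called on the average only, 31 were separated at each day and 9 over the pooled days.

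Prupe.3G144100 had the largest rise among genes separated at each day. Its control libraries (replicates 1 to 4) had 0, 71.4, 1.92 and 33.5 FPKM at 3 days and 0, 7.05, 0 and 5.82 FPKM at 7 days. Treated buds had 1867, 545, 883 and 1000.0 FPKM at 3 days and 228, 95.1, 139 and 717 FPKM at 7 days. All 8 HC libraries were above all 8 control libraries, and HC levels were higher at 3 than at 7 days. The average difference was 6.52 ± 0.79 (SE, adjusted p = 0.00053), with 6.72 at 3 days and 6.32 at 7 days. The rise rested on a median of 2447 estimated reads per HC library, against 15.5 per control library.

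Prupe.4G155200 followed, with 6.18 ± 0.74 (adjusted p = 0.00026). It was listed at 0 in control replicates 1, 3 and 4 at 3 days and had 1.03 FPKM in replicate 2, and at 7 days its control libraries had 0, 3.96, 26.3 and 5.55 FPKM. After HC the values were 652, 189, 198 and 431 FPKM at 3 days and 54.8, 39.2, 110 and 529 FPKM at 7 days. The groups did not overlap at either day, and HC replicate 4 stood well above the other HC libraries at 7 days. The difference was 8.07 ± 0.87 at 3 days and 4.30 ± 0.87 at 7 days. The change between the days was -3.77 ± 1.22 and was not called (adjusted p = 0.24). Under voom on estimated reads neither of these rises was called (adjusted p = 0.092 for Prupe.3G144100, range over its 31 alternatives 5.1e-05 to 0.092, and 0.11 for Prupe.4G155200, range 3.3e-05 to 0.14).

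Among the falls, Prupe.4G194200 had 62.1, 3.18, 32.9 and 42.1 FPKM in control libraries at 3 days and 42.7, 45.0, 20.9 and 38.7 FPKM at 7 days. In HC libraries it had 0.56, 0, 0.72 and 0 FPKM at 3 days and 2.81, 7.71, 0 and 7.95 FPKM at 7 days. Every HC library was below every control library of its day, and control replicate 2 of 3 days was the lowest control. Its average difference was -3.71 ± 0.59 (adjusted p = 0.0026), with -4.28 at 3 days and -3.13 at 7 days. The 7-day contrast alone did not pass (adjusted p = 0.11).

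In limma Prupe.7G233000 was called on the average and at neither day. Its control libraries had 9.11, 41.6, 14.6 and 4.54 FPKM at 3 days and 31.2, 28.8, 59.7 and 59.97 FPKM at 7 days. The HC values were 0.75, 0, 3.19 and 0 FPKM at 3 days and 11.9, 13.2, 0 and 11.1 FPKM at 7 days. HC libraries lay below all control libraries of their own day, while those of 7 days overlapped the control libraries of 3 days. The average difference was -2.87 ± 0.59 (adjusted p = 0.019), with -3.08 at 3 days (adjusted p = 0.082) and -2.66 at 7 days (adjusted p = 0.20). It was no longer called with a pseudocount of 0.1 (adjusted p = 0.063, range over 31 alternatives 0.0057 to 0.24).

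The next genes were called on the average, at neither day, and by 1 or less. They were chosen by these rules, so their small size and the lack of a single-day call are set by the choice. Their values do not show that the effect was equal at both days. At 3 days Prupe.8G071500 had 351, 298, 355 and 308 FPKM without HC, and 612, 544, 423 and 456 FPKM with it. At 7 days the values were 252, 188, 145 and 194 FPKM without HC, and 345, 330, 389 and 290 FPKM with it. HC and control libraries did not overlap at either day, while both groups were lower at 7 days, so that the HC level of 7 days (339 ± 40.8 FPKM, SD, n = 4) was close to the control level of 3 days (328 ± 29.0 FPKM). Averaged over days, the difference was 0.72 ± 0.14 (SE, adjusted p = 0.011), with 0.62 at 3 days (adjusted p = 0.13) and 0.81 at 7 days (adjusted p = 0.069).

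For Prupe.6G082000 the control mean was 358 ± 81.7 FPKM and the HC mean 651 ± 121 FPKM on day 3, and on day 7 they were 519 ± 246 and 902 ± 121 FPKM (SD, n = 4). With HC the libraries had 604, 520, 805 and 677 FPKM at 3 days and 1066, 895, 775 and 873 FPKM at 7 days. The control libraries had 393, 275, 456 and 310.1 FPKM at 3 days and 291, 848, 556 and 379 FPKM at 7 days. Control replicate 2 of 7 days lay within the HC range of its day, and every other control library lay below the HC range of its own day. Averaging both days gave a difference of 0.89 ± 0.18 (SE, adjusted p = 0.018), with 0.87 and 0.91 at the single days (adjusted p = 0.12 and 0.15).

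Prupe.6G224000 had the highest level of the named genes and the smallest fall. Its control libraries had 3953, 3964, 4600 and 3333 FPKM at 3 days and 7445, 6253, 8172 and 5692 FPKM at 7 days. In treated buds the values were 2624, 2480, 3302 and 3250 FPKM at 3 days and 4888, 5496, 5488 and 4860 FPKM at 7 days. HC libraries were below all control libraries of their day, by a narrow margin at 3 days, and both groups were higher at 7 days. Over both days the difference was -0.42 ± 0.091 (adjusted p = 0.025), with -0.45 at 3 days (adjusted p = 0.10) and -0.40 at 7 days (adjusted p = 0.21). This call was fragile. It was lost without control replicate 3 of 3 days (adjusted p = 0.059), HC replicate 1 of 3 days (0.058) or HC replicate 1 of 7 days (0.052), and with quantile normalization, where the difference was -0.15 (adjusted p = 0.52, range over 32 alternatives 0.012 to 0.52).

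At 3 days Prupe.7G216200 had 558, 331, 480.2 and 468 FPKM without HC, and 181, 324, 353 and 213 FPKM with it. At 7 days the values were 619, 552, 430 and 493 FPKM without HC, and 226, 353, 399.8 and 264 FPKM with it. The groups overlapped at 3 days through control replicate 2 and HC replicate 3, and did not overlap at 7 days. The average difference was -0.79 ± 0.17 (adjusted p = 0.025), with -0.81 at 3 days (adjusted p = 0.12) and -0.77 at 7 days (adjusted p = 0.19). Its call was lost without control replicate 1, 3 or 4 of 3 days, HC replicate 1 or 4 of 3 days, or HC replicate 1 of 7 days (adjusted p between 0.0503 and 0.058). Over its 32 alternatives the adjusted p ran from 0.00037 to 0.21.

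**Figure D3:**
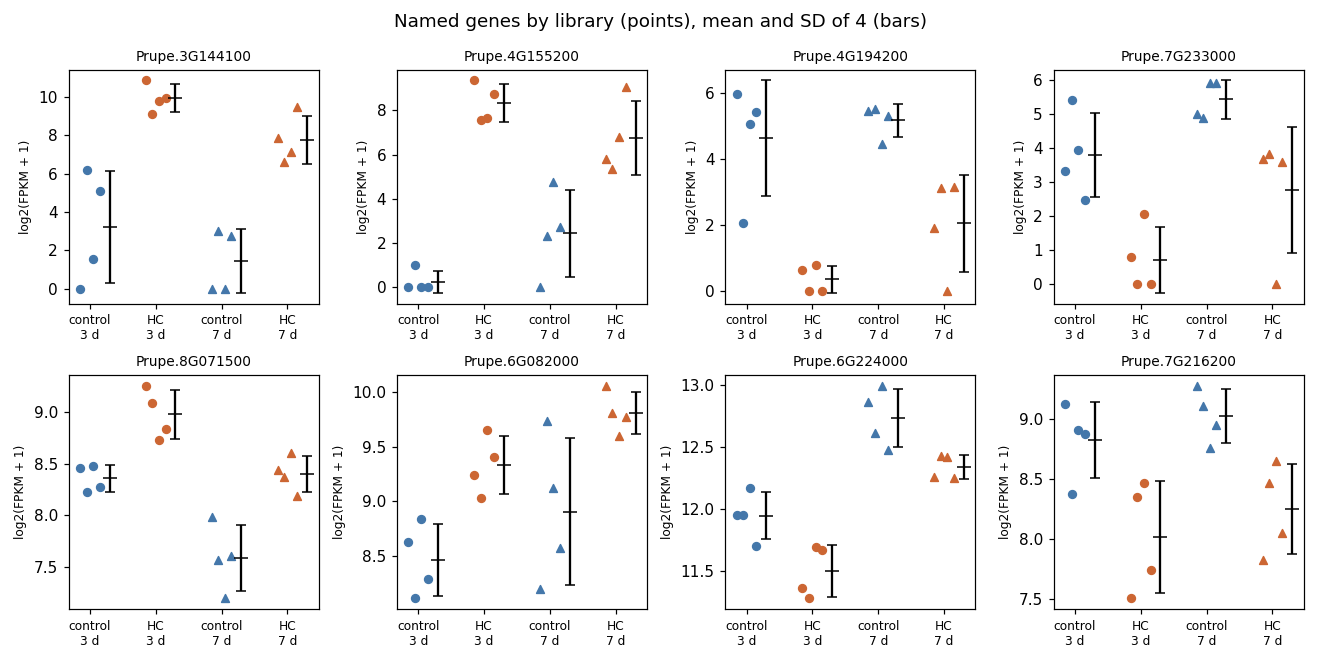
Each panel gives log2(FPKM + 1) of a gene in each library (points; circles at 3 days, triangles at 7 days, blue for control and orange for HC), with the mean and SD of the 4 libraries of a group beside them. In the top row the groups differ by several log2 units, and in the bottom row by less than 1, with the same direction at both days.

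With neither the trend nor the robust setting in limma, all 4 of these small differences lost their call, with adjusted p = 0.17 for Prupe.8G071500, 0.16 for Prupe.6G082000, 0.44 for Prupe.6G224000 and 0.19 for Prupe.7G216200. Over all alternatives the adjusted p ran from 0.0063 to 0.19 for Prupe.8G071500 and from 0.0026 to 0.27 for Prupe.6G082000.

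The authors' deposited tables, made with a method not given in the sources used here, list differences for these small effects at single days. For Prupe.8G071500 the authors' deposited tables give log2 fold changes of 0.73 at 3 days (adjusted p = 0.0021) and 0.53 at 7 days (adjusted p = 4.3e-07). For Prupe.6G082000 the authors' deposited tables give 0.98 (adjusted p = 4.3e-05) and 0.71 (adjusted p = 0.061). For Prupe.6G224000 the authors' deposited tables give -0.35 (adjusted p = 0.77) and -0.39 (adjusted p = 0.0057), and for Prupe.7G216200 -0.72 (adjusted p = 0.17) and -0.85 (adjusted p = 8.7e-06). Each of the 4 was therefore under 0.05 at 1 day or both in those tables. The share of all genes under 0.05 there was not counted, so this is no support for the 4. For the larger fall of Prupe.7G233000, called at neither day in limma, the authors' deposited tables give -3.17 at 3 days (adjusted p = 0.020) and -2.25 at 7 days (adjusted p = 2.1e-09).

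How often a gene was called depended on its level. Of the 5029 genes with a mean under 5 FPKM, 21 were called (0.418%), all of them higher in HC. Between 5 and 20 FPKM 35 of 5848 were called (31 higher, 4 lower), and between 20 and 100 FPKM 41 of 4055 (32 higher, 9 lower). Between 100 and 500 FPKM 72 of 1277 were called (5.64%), and at 500 FPKM or more 47 of 387 (12.1%), with 38 higher and 34 lower in the former and 23 higher and 24 lower in the latter. The surplus of rises therefore lay in genes under 100 FPKM. The median SE was 0.53 under 5 FPKM and 0.60 between 5 and 20 FPKM, and lower above that, down to 0.14 at 500 FPKM or more. The smallest called difference was 1.23 under 5 FPKM, 2.12 between 5 and 20 FPKM and 0.41 at 500 FPKM or more.

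The median difference over all tested genes also followed the level. It was 0.26 under 5 FPKM, 0.30 between 5 and 20 FPKM, 0.17 between 20 and 100 FPKM, 0.083 between 100 and 500 FPKM and 0.0079 at 500 FPKM or more. Values listed at 0 moved with it: under 5 FPKM they made up 44.1% of control and 27.8% of HC values, and between 5 and 20 FPKM 17.1% and 7.82%. Without the sparsest control library of each day the control shares were 33.1% and 8.19%, and the median over all tested genes was 0.06. With quantile normalization that median was -0.03, and 180 genes were called, 108 higher and 72 lower. The part of depth in the surplus of rises was not tested beyond these values.

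**Figure D4:**
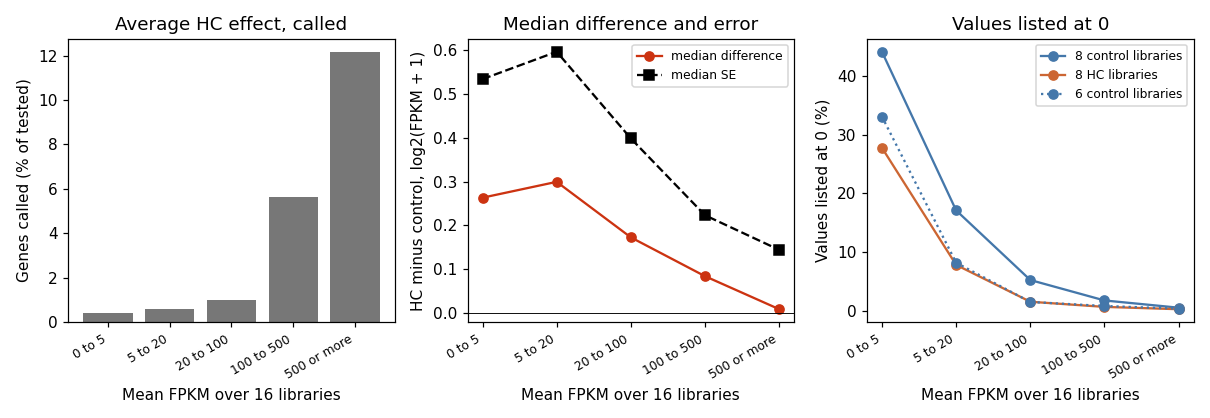
Tested genes are grouped on the x axis by mean FPKM over 16 libraries. The panels give the share of genes called in percent (bars, 0.418% to 12.1%), the median HC minus control difference and median SE on the log2(FPKM + 1) scale (lines), and the percent of values listed at 0 in the 8 control, the 8 HC and the 6 control libraries left without the sparsest of each day.

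Called genes were spread over all identifier prefixes. The share called was between 0.873% (Prupe.5G) and 1.55% (Prupe.7G) for the 8 numbered identifier prefixes. The 28 tested identifiers with the prefix Prupe.I were few, and 4 of them were called (14.3%), all higher in HC. Neighbouring identifiers were both called in 8 pairs, in 7 of which both genes rose. No pair fell together, and the remaining pair had opposite signs. In all, 15 of the 216 called genes (6.94%) had a called gene as the next identifier, against 1.61% of the tested genes that were not called. Genes next to each other can be close copies, between which reads may be divided unevenly. Whether these pairs are copies was not tested, so levels within a pair are uncertain.

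The longest run of called neighbours held 3 identifiers, and it contained the gene with the largest rise. Its members Prupe.3G143900 and Prupe.3G144000 were picked out after their values were seen. Prupe.3G143900 was listed at 0 in 6 control libraries and had 23.2 FPKM in control replicate 1 at 3 days and 13.7 FPKM in control replicate 2 at 7 days. In HC-treated buds it had 243, 19.0, 95.0 and 172 FPKM at 3 days and 28.4, 32.6, 19.4 and 204 FPKM at 7 days, so the groups overlapped at 3 days and not at 7 days. The average difference was 4.97 ± 0.80 (SE, adjusted p = 0.0029).

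Prupe.3G144000, between the other members of the run, had 20.7, 1.78, 21.8 and 13.1 FPKM in control libraries at 3 days and 0, 21.9, 7.52 and 18.8 FPKM at 7 days. With HC it had 795, 221, 369 and 451 FPKM at 3 days and 114, 63.2, 71.2 and 351 FPKM at 7 days. All HC libraries were above all control libraries, with an average difference of 4.51 ± 0.62 (adjusted p = 0.00099), 5.14 at 3 days and 3.89 at 7 days. All 3 members of the run, and also Prupe.4G155200 outside it, had their highest 7-day level in HC replicate 4 and their highest 3-day level in HC replicate 1.

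The count of called genes depended on single libraries. Among the 3-day libraries, leaving out HC replicate 1 gave 115 genes, HC replicate 4 gave 132, control replicate 3 gave 131 and control replicate 4 gave 138. Leaving out HC replicate 1 of 7 days gave 140, and each of the other 11 libraries gave 147 to 227. The count of 91 called on the average only became 50, 54, 58 and 56 when those 3-day libraries were left out in the same order. It became 47 when HC replicate 1 of 7 days was left out, and 60 for control replicate 1 of that day. When both days of a treatment and replicate number were first averaged, which takes a number as 1 tree and leaves 4 against 4 values, 221 genes were called (161 higher, 60 lower), 160 of them among the 216.

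**Figure D5:**
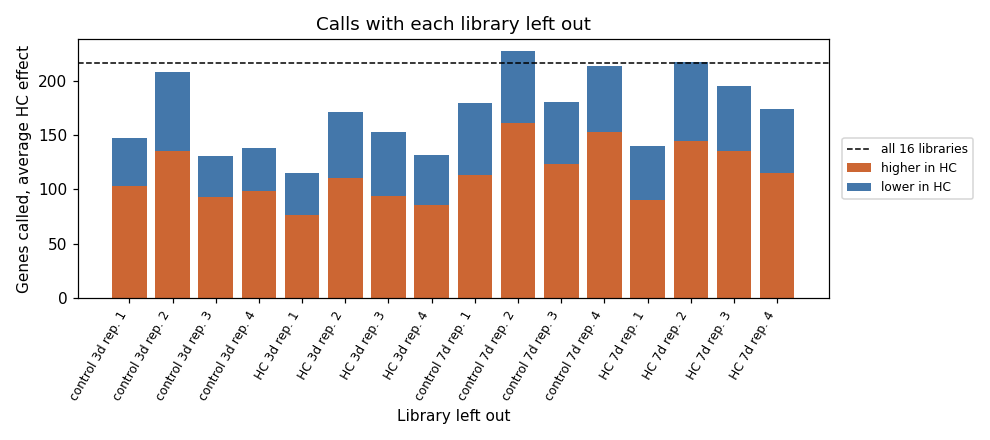
Bars give the number of genes called for the average HC effect when the library named on the x axis is left out, split into genes higher (orange) and lower (blue) in HC. The dashed line marks the 216 genes called with all 16 libraries, and the lowest bar is 115, without HC replicate 1 of 3 days.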

How the data were processed

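The labels list total RNA from buds and TruSeq mRNA libraries. The tools named, with no role given, per the submitters' processing notes are RSEM 1.2.31, STAR 2.5.2a and Trimmomatic. A genome build is not given in the sources used here. In the matrix as deposited there were 26873 identifiers in 16 columns, whose values the authors left unnamed and which behave as FPKM. Matching them to the 26412 genes of the RefSeq table gave 0 matches. The authors also deposited, per day, a log2 fold change, an adjusted p-value and a signal value per treatment, the method behind them not being stated.

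The filter kept 16596 genes that reached 1 FPKM in 4 or more of the 16 libraries. log2(FPKM + 1) was fitted with limma 3.58.1 (R 4.3.3, statmod 1.5.0), day and treatment as terms, with trend and robust empirical Bayes. This scale understates changes of low genes. Single-day contrasts and their difference came from a fit with 1 mean per group. A value of 0 says only that the gene is listed at 0. The fits were tested on simulated data.

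Depth was estimated because FPKM carries none. For 18510 genes the deposited signal over FPKM gave a length-like factor, and the spacing of the low values gave the size of 1 read. Between 86.8% and 98.0% of low values per library lay within 0.2 of a whole number. By chance 40% would do so for a size of 1 read fixed beforehand. The size was fitted to these same values, so the gap to 40% is no test of it.

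Members, lists and tests were chosen with earlier results of these data known. Named genes were the 2 highest and 2 lowest differences among called genes without overlap at each day, and the 2 rises and 2 falls with the lowest p among those called on the average only with a difference of 1 or less. Alternatives were other pseudocounts, filters, scalings, weights, blocks and left-out libraries, and voom on the estimated reads, added after the data were seen.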

Additional observations from a re-analysis of the deposited data

Results flagged for a closer look

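In groups of 4 libraries, 5 values of the 48 groups checked (10 named genes and 2 measures of depth) stood apart from the other 3. For normally distributed values chance marks about 1 group in 20. A group with 3 libraries at 0 and 1 above it is always marked, so that rate does not hold for it. This was the case for the control values of Prupe.4G155200 and Prupe.3G143900. Prupe.4G155200 had 1.03 FPKM in control replicate 2 at 3 days, about 1 estimated read, while the other 3 were listed at 0. Prupe.7G233000 was listed at 0 in HC replicate 3 at 7 days, below 11.1 to 13.2 FPKM in the others. Prupe.3G143900 had 23.23 FPKM in control replicate 1 at 3 days and 13.7 FPKM in control replicate 2 at 7 days, with the other 3 control libraries of each day listed at 0. The estimated reads of HC replicate 1 at 7 days were 16.7 M (megareads), against 2.60 to 3.57 M in the other HC libraries of that day.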

How the results depend on the processing

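Of 32 alternatives, 23 kept the count of 216 genes within 1.5 times. Each of the 216 kept its sign wherever it was tested, which calling them on most of the same libraries favours. Library quality weights gave 504 genes (367 higher, 137 lower), with 151 called on the average only, 809 at 3 days and 186 for the difference between days. Neither trend nor robust settings gave 73 (58 higher, 15 lower), with 34, 138 and 33. Voom on the estimated reads gave 600 (387 higher, 213 lower), with 896 at 3 days, 118 at 7 days and 221 for the difference. The 8 libraries of 7 days alone gave 13. At 7 days and for the difference, a pseudocount of 0.1 gave 44 and 41 genes and a pseudocount of 5 gave 120 and 125. Quantile normalization gave 128 for the difference. Without control replicate 2 of 3 days and control replicate 1 of 7 days, 356 genes were called at 3 days and 109 for the difference. The causes were not tested.

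With replicate number as a replicate block, 151 genes were called, 59 on the average only, 43 at 7 days and 53 for the difference. A random block of treatment and replicate number gave 243, and averaging both days gave 221, where Prupe.6G224000 (adjusted p = 0.072) and Prupe.7G216200 (0.082) lost their calls. Same-numbered libraries of 3 and 7 days had deviations correlated by -0.03 to 0.13 (8 pairs, 1 over 0.1), and those of control and HC by -0.05 to 0.04, so numbers were not taken to pair samples.

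Leaving out 1 library gave 115 to 227 genes (76 to 161 higher, 38 to 73 lower), 47 to 94 on the average only, 166 to 348 at 3 days, 8 to 168 at 7 days and 34 to 107 for the difference. Prupe.8G071500 and Prupe.6G082000 kept their calls in these fits but lost them with neither trend nor robust settings (adjusted p = 0.17 and 0.16), as did Prupe.6G224000 (0.44) and Prupe.7G216200 (0.19). Under 20 FPKM no difference below 1.23 was called, and the part of depth in this was not tested.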
